A study of Mus musculus with 4 samples.

Results

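The genes of the SMAD signalling chain and its nuclear co-repressors Ski and Skil were examined in mouse germinal vesicle stage oocytes. The members were Smad1, Smad2, Smad3, Smad4, Smad5, Smad6, Smad7, Ski and Skil, and their rows were found by NCBI gene ID. They make up 9 of 17374 genes and 23 of 45505 RefSeq transcripts. Polyadenylated RNA was sequenced in 4 libraries. In 2 of them the oocytes were controls without irradiation, and in 2 they had received a 5 Gy dose of γ-irradiation 24 h earlier. Values given in fours follow the order control 1, control 2, irradiated 1, irradiated 2. Both conditions shared the same background: oocytes were denuded at day 16 of post-natal development from non-primed C57/Bl6/DBA2J F1 hybrid females, held at the germinal vesicle stage with milrinone, and pooled. Each library is therefore a pool of oocytes, and p-values measure the spread between these libraries. In pooled samples, fewer cells of a type and less RNA per cell cannot be told apart.

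Ligands of the transforming growth factor β family bind paired type I and type II receptors, and the activated type I receptor phosphorylates receptor-regulated SMAD proteins. SMAD1 and SMAD5 answer mainly to bone morphogenetic proteins, SMAD2 and SMAD3 to activin, TGF-β and GDF9. These join the common mediator SMAD4 and enter the nucleus, SMAD6 and SMAD7 inhibit the chain, and SKI and SKIL (also called SnoN) bind nuclear SMAD complexes and recruit histone deacetylases to silence their targets. The oocyte is itself a source of GDF9 and BMP15, which act on the surrounding granulosa cells.

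The summed level of the oocyte markers was far above that of the granulosa cell markers. All 13 oocyte markers were tested and their summed level was 55118, 55459, 54657 and 47810 TPM, a measure of level that corrects for transcript length. For granulosa and cumulus cell markers, of which 10 of 15 had a value, the sum was 17.8, 20.2, 17.6 and 24.5 TPM. Of those 10, Inha, Inhba, Hsd17b1, Nr5a1 and Has2 had at most 11 counts in any library. The other 5 were detected in every library, Nr5a2 at 382 to 702 counts, Cyp19a1 at 528 to 543, Kitl at 172 to 222, Fshr at 91 to 148 and Cyp11a1 at 59 to 133. The part of RNA from such cells in the results was not tested. The estimated counts summed to between 33349466 and 37232818 per library. Irradiated library 2 stood apart. It had 31312 transcripts above 3 counts against 29624 to 29913 in the others, and a normalization factor of 1.19 against 0.923 to 0.975. Estimates that moved by over 1.5 times without it are given again beside the first value where a fold could be estimated.

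The members lie on 6 chromosomes of the mouse genome (build GRCm38.p6). Ski (NCBI gene 20481) spans chr4:155154075-155222535, Skil (20482) chr3:31095058-31122923, Smad1 (17125) chr8:79338395-79399428 and Smad5 (17129) chr13:56703010-56742378. Smad3 (17127) at chr9:63646766-63757994 and Smad6 (17130) at chr9:63953076-64022085 are on the same chromosome. The RefSeq promoter windows of Ski and Smad6 are given here 5′ to 3′, from 250 bases before the annotated start to 50 after it. Both are on the minus strand, at chr4:155222486-155222785 and chr9:64022010-64022309. Capitals mark matches to the motifs searched on both strands, namely the palindromic SMAD-binding element GTCTAGAC, the shorter SMAD site CAGAC and the GC-rich element GGCGCC found in targets of bone morphogenetic proteins. None of these motifs contains another.
Ski: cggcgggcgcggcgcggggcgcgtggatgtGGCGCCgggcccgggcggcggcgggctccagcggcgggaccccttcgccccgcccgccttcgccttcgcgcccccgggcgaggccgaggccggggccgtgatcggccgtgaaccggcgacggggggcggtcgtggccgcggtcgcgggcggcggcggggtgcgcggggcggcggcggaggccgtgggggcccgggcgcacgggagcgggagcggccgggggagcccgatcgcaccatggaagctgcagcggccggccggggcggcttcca
Smad6: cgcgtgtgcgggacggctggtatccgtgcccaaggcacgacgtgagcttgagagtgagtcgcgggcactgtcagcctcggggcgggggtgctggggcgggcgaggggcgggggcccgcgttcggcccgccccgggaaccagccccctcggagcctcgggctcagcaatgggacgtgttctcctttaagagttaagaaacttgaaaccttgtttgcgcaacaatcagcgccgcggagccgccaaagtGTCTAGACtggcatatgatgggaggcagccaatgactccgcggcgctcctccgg

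The Smad6 window held the palindrome, which 0.213% of 32851 mouse promoter windows of this length hold. The Ski window held GGCGCC, present in 11.9% of all windows. It was also extremely rich in G and C (85.3%, with 59 CpG dinucleotides, against medians of 52.7% and 7 over all windows), and Smad6 stood at 66.3% with 31. The windows of Smad1 (65.0% G and C, 31 CpG) and Smad3 (67.7%, 25) held none of the motifs. Those of Smad5 stood at 63.0%, 67.0% and 68.0% G and C, so Smad6 was close to these members and Ski stood apart. A link between these letters and level was not tested. Windows of Smad2, Smad4 and Smad7, on chromosome 18, were left out of the search by member, and none was available for Skil. For Smad5, GGCGCC lay in the first 2 of 3 overlapping or neighbouring windows and the short site CAGAC, present in 49.6% of all windows, in the third. A match is a description of the letters and not evidence of binding.

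Transcripts of the activin and TGF-β branch were more abundant than those of the bone morphogenetic protein branch. In TPM summed over the transcripts of a gene, the members ordered as Smad2 (13.9 ± 1.88 TPM, SD, n = 4 libraries), Ski (12.5 ± 3.25), Smad3 (7.63 ± 0.672), Smad4 (2.23 ± 0.524), Smad5 (2.01 ± 1.17) and Smad1 (1.25 ± 0.0963). Smad6, Skil and Smad7 followed at 0.075, 0.035 and 0.0125 TPM. The ranges of Smad2 and Ski overlapped, as did those of Smad4, Smad5 and Smad1 in turn, and those of Smad6, Skil and Smad7. Ski and Smad3 did not overlap, nor did Smad3 and Smad4. Smad2 together with Smad3 exceeded Smad1 together with Smad5 by 6.54, 8.66, 7.88 and 5.02 times, and the lowest of these ratios came from irradiated library 2. Ski exceeded Smad4 by 4.99, 5.93, 5.80 and 5.74 times.

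**Figure D1:**
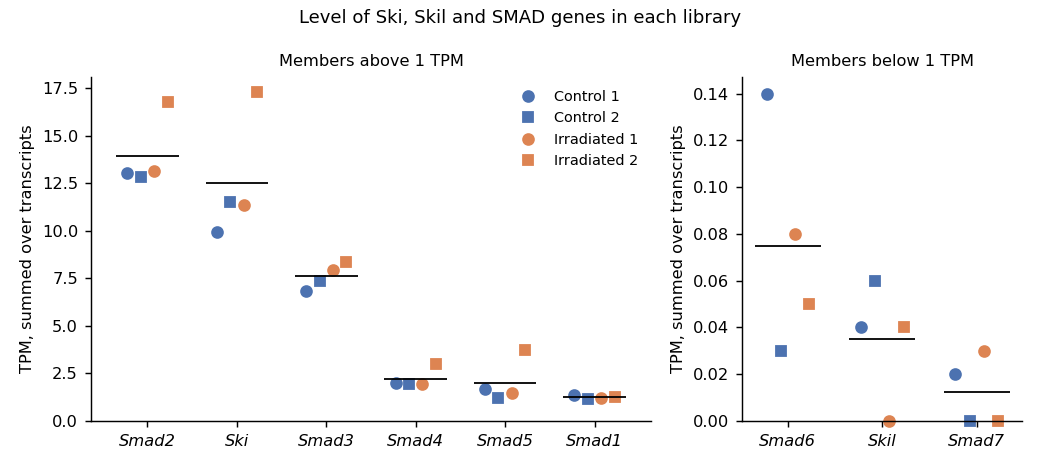
Level of each member in TPM summed over its transcripts (y axis, linear) in control libraries (blue) and irradiated libraries (orange), with replicate 1 as circles and replicate 2 as squares; the bar is the mean of the 4 libraries. Smad2, Ski and Smad3 lie between 6.83 and 17.3 TPM, and Smad6, Skil and Smad7 in the right panel lie at or below 0.14 TPM.

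The main question of the design was whether 5 Gy of γ-irradiation altered these genes 24 h later. No member was called at the level of gene totals. The limits for a call were 0.05 for the adjusted p and 2 for the size of the log2 fold change. Under them edgeR's quasi-likelihood test called 0 of the 6 members it tested and 1 of 12569 genes in all, or 0.00796%. At an unadjusted p under 0.05 the members again numbered 0 of 6, against 5.92% of all genes (4.63% higher and 1.29% lower in irradiated oocytes). DESeq2 called 0 of 9 members and 0.023% of all genes, edgeR's exact test 0 of 6 and 0.0796%, and the fit without a filter on low counts 0 of 9 and 0.0173%. The 95% intervals of all 6 fold changes lay within the limit of 2.

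Of the bone morphogenetic protein branch, Smad1 was assigned 107, 79, 87 and 83 counts. The conditions overlapped. Its mean normalized count (scaled by library size and edgeR's TMM factor) was 97.6 ± 17.0 (SD, n = 2) in control and 82.0 ± 14.9 in irradiated oocytes. The log2 fold change was -0.26 (SE 0.244, 95% interval -0.84 to 0.32, edgeR adjusted p = 0.753), and it was -0.08 without irradiated library 2. Smad5, which shares its receptors with Smad1, had 208, 143, 164 and 269 counts. Its lowest and highest libraries were control 2 and irradiated 2, and its log2 fold change of 0.14 (SE 0.233, interval -0.41 to 0.70) had an edgeR adjusted p of 0.844. Without irradiated library 2 the estimate was -0.08.

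Of the activin and TGF-β branch, Smad2, which like Smad4 and Smad7 lies on chromosome 18, had 3038, 2652, 2807 and 3348 counts, the most of any member. After normalization its conditions lay close together, at 2994 ± 169 and 2934 ± 72.3 (SD, n = 2). Its log2 fold change was -0.03 (SE 0.136, interval -0.35 to 0.29, edgeR adjusted p = 0.946). Without irradiated library 2 it was -0.0037. With library size alone as the scale, which moved the median of all genes to 0.17, the Smad2 estimate was 0.13. Smad3, the partner that binds DNA directly, had 787, 753, 847 and 842 counts. Its normalized count was 811 ± 6.72 in control and 813 ± 124 in irradiated oocytes, so the irradiated libraries lay on either side of the controls. The interval of its log2 fold change ran from -0.35 to 0.36 (edgeR adjusted p = 0.997), and the estimate was 0.15 without irradiated library 2.

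Smad4, the mediator that both branches need, had 396, 345, 367 and 522 counts. Control library 1 exceeded irradiated library 1 after normalization (406 against 390.3), so the conditions overlapped. The log2 fold change was 0.11 (SE 0.150, interval -0.25 to 0.46, edgeR adjusted p = 0.821), and it was 0.0016 without irradiated library 2.

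The inhibitory members were close to the limit of detection. Smad6, which mainly restrains bone morphogenetic protein signals, had 10, 2, 5 and 3 counts. Smad7, which targets activated receptors for degradation, had 2, 0, 2 and 0 counts, never above the floor of 3 counts. Neither passed the filter on low counts, and a difference was not detectable at this depth.

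Among the co-repressors, Ski was well expressed and Skil was not. Ski had 1437, 1477, 1510 and 2122 counts. Its normalized count was 1473 and 1601 in control against 1606 and 1827 in irradiated libraries. Ski was the 1 member of 6 with both irradiated libraries above both controls, a pattern shown by 22.1% of all genes tested, and 0 of 6 had both below, against 19.9%. For Ski, control library 2 and irradiated library 1 were nearly equal. The means were 1537 ± 90.5 and 1717 ± 157 (SD, n = 2). Its log2 fold change was 0.16 (SE 0.140, interval -0.17 to 0.49, edgeR adjusted p = 0.741). It was 0.06 without irradiated library 2. Skil had 7, 8, 0 and 7 counts. Like Smad6 and Smad7, it did not pass the filter on low counts and was left out of the filtered quasi-likelihood test.

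**Figure D2:**
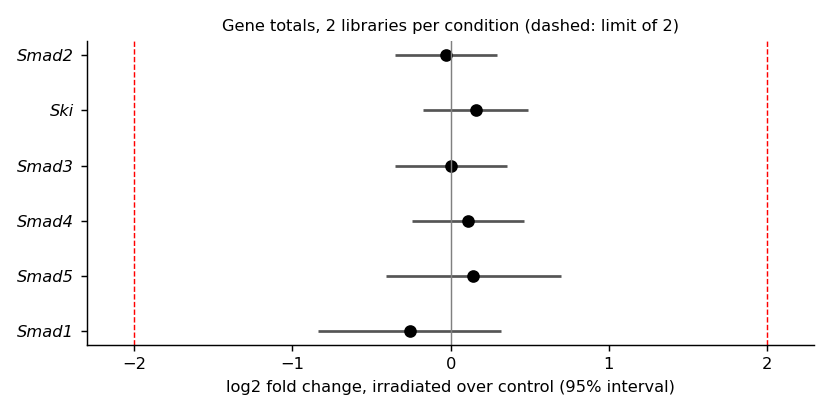
Log2 fold change of gene totals, irradiated over control (x axis), with its 95% interval, from 2 libraries per condition. Shown are the 6 members that passed edgeR's filter on low counts. Every interval crosses 0 and stays within the dashed limits at -2 and 2; the estimates run from -0.26 for Smad1 to 0.16 for Ski.

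The profile of Ski over the 4 libraries was a common one. The genes nearest to it were Rab8a, Cd209g and Lsm11, with root mean square differences in centred log2 normalized count of 0.0066, 0.0082 and 0.0091 over the 4 libraries, and 1764 genes lay within 0.1. Skil, with its few counts, had Mtfp1, Gm14428 and Pramel20 as its nearest genes at 0.38, 0.39 and 0.53, and 0 genes lay within 0.1.

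Below the level of the gene, reads were divided among transcripts by estimation. A transcript therefore carries the error of that step, and RefSeq's XM_ prefix marks transcripts predicted by computation. The quasi-likelihood test called 0 of 26645 transcripts, 0.0% (1306 at an unadjusted p under 0.05), and 0 of 15 member transcripts that it tested. DESeq2 called 0.862% of 28757 transcripts, 1 of 16 member transcripts among them, and edgeR's exact test called 0.927% and 0 of 15.

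The transcript called by DESeq2 was Ski NM_001357191.1. It had 0 counts in both control libraries and in irradiated library 1, and 834 in irradiated library 2. The signal thus came from a single library, in which it made up 39.3% of the Ski counts. The mean of the irradiated libraries was thus at least 121-fold higher than the floor of 3 counts in the controls, a bound that rests on irradiated library 2. The other transcript, NM_011385.2, had 1437, 1477, 1510 and 1288 counts and was the whole of Ski in the first 3 libraries and 60.7% in irradiated library 2. DESeq2 gave NM_001357191.1 an adjusted p of 0.000414, and edgeR without the filter on low counts gave 0.920. Without irradiated library 2 no count was left to test. Over all genes with several listed transcripts, 0.373% of 37556 transcripts exceeded 3 counts in 1 library only and reached 100 counts there, against 1 of 21 for the members. That 1 is NM_001357191.1 itself, and the members were chosen with earlier results of these data known, so no excess is read from it. For NM_011385.2 the log2 fold change was -0.17 (SE 0.212, edgeR adjusted p = 1.00), opposite in sign to that of the gene, and it was 0.068 without irradiated library 2 and 0.022 on the log2(TPM + 1) scale.

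The division of Smad4 reads varied from library to library, and isoform usage did not pass the test. NM_008540.3 had 204, 250, 367 and 484 counts. It was 51.5%, 72.4%, 100% and 92.7% of the Smad4 counts, so the shares in irradiated libraries lay above those in the controls. In normalized count, 18.7% of all transcripts had both irradiated libraries above both controls, and for shares this was not counted. The predicted transcript XM_011246855.2 took most of the rest, with 192, 68, 0 and 38 counts, and XM_006525701.3 had 27 counts in control library 2 alone. The log2 fold change of NM_008540.3 was 0.77 (SE 0.207, interval 0.18 to 1.36) with an unadjusted p of 0.0233 and an edgeR adjusted p of 0.779. For isoform usage of Smad4, edgeR with Simes' method gave an unadjusted p of 0.187 and an adjusted p of 1.00, and limma's diffSplice an adjusted p of 0.755. XM_011246855.2 had a log2 fold change of -2.99 with an SE of 1.92 (edgeR adjusted p = 1.00). Without irradiated library 2 it was -10.0, a size that depends on the prior count of the fit because irradiated library 1 had 0 counts.

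Smad3 had the smallest unadjusted p for isoform usage among the members in the edgeR fit, though not with diffSplice of limma, where Smad5 did. XM_006510821.4 carried 97.7%, 97.6%, 95.5% and 84.0% of its counts. NM_016769.4 had 0, 0, 21 and 61 counts, a mean at least 12.6-fold higher than the floor in the controls, and XM_006510819.3 had 18 and 18 against 17 and 74 (log2 fold change 1.13, and -0.065 without irradiated library 2). Both irradiated libraries thus contained NM_016769.4, at 2.54% and 7.22% of Smad3. The unadjusted p of this transcript was 0.0118 and the edgeR adjusted p 0.777, with 0.115 by DESeq2. For isoform usage of Smad3, Simes' method in edgeR gave an adjusted p of 0.241. Without adjustment p was 0.00308 in that edgeR fit, the 1 member of 4 below 0.05 against 6.12% of genes. The adjusted p for Smad3 usage was 0.0866 by edgeR's gene-level F test, 0.765 by diffSplice of limma and 0.968 with the replicate block in edgeR. The low unadjusted p rests on NM_016769.4, whose own usage p in that edgeR fit was 0.00103. This transcript passed the filter on low counts through the irradiated libraries alone, so no change of usage is read from these values. With Simes' method the test called 16 of 6323 genes with 2 or more transcripts, or 0.253%, and 0 of 4 members.

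The counts of Smad2 fell on 6 transcripts. NM_010754.5 had 1951, 1945, 1725 and 2287 counts and made up between 61.5% and 73.3% of the gene. XM_006525699.3 was next with 852, 535, 888 and 701. XM_030250351.1 was present at 166 counts in control library 1 and 327 in irradiated library 2 and rounded to 0 in the other two, while NM_001311070.1 had 69, 171 and 177 counts and then 0 in irradiated library 2. These minor transcripts varied between libraries of the same condition by more than between conditions. XM_017317842.2 had 0, 0, 16 and 16 counts, a mean at least 5.15-fold higher than that floor (edgeR unadjusted p 0.0212, adjusted p = 0.777), and NM_001252481.1 had 17 counts in irradiated library 2 alone. XM_017317842.2 passed the filter on low counts through the irradiated libraries alone, which fixed its direction, so no rise is read from these values.

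In Smad5 the division of reads changed in irradiated library 2. NM_008541.3 had 160, 109, 123 and 89 counts (log2 fold change -0.43, and -0.10 without irradiated library 2), and the predicted XM_030247171.1 had 48, 24, 41 and 170. The latter was 23.0%, 16.6% and 25.2% of Smad5 in the first 3 libraries and 63.2% in irradiated library 2, so the irradiated libraries did not behave alike. Its log2 fold change was 1.36 with an SE of 0.799 (edgeR adjusted p = 1.00), and 0.22 without irradiated library 2. NM_001164041.1 had 11 and 10 counts in control library 2 and irradiated library 2. Smad1 had a single listed transcript, NM_008539.4. The few counts of Skil fell on XM_006535427.4 in the controls (7 and 8) and on NM_001039090.2 in irradiated library 2 (7). Those of Smad6 fell on XM_006510822.3 in 3 libraries and on NM_008542.3 in irradiated library 2, and XM_006525703.3 was the one listed transcript of Smad7.

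Of the 15 member transcripts tested, 3 had an unadjusted p under 0.05, against 4.9% of all transcripts. All 3 were higher in irradiated oocytes (Smad4 NM_008540.3, Smad3 NM_016769.4 and Smad2 XM_017317842.2) against 2.73% of all transcripts, and 0 were lower against 2.17%. In normalized count, 3 of 15 had both irradiated libraries above both controls, against 18.7% of all, and 1 had both below, against 17.9%. Smad3 NM_016769.4 and Smad2 XM_017317842.2, which are in both counts of 3, had 0 counts in the controls and passed the filter on low counts through the irradiated libraries alone. That fixed their direction, and no excess is read from these counts. The quasi-likelihood test gave the 3 transcripts edgeR adjusted p-values of 0.777 to 0.779. By the exact test of edgeR the adjusted p was 0.0815 for Smad3 NM_016769.4, 0.262 for Smad2 XM_017317842.2 and 0.915 for Smad4 NM_008540.3. The highest normalized count fell in irradiated library 2 for 8 of 21 member transcripts above 3 counts, against 31.9% of 39687 transcripts in all. That library had the highest number of detected transcripts. Estimates from fits without it stand beside several transcript values above, and why it differed was not tested.

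**Figure D3:**
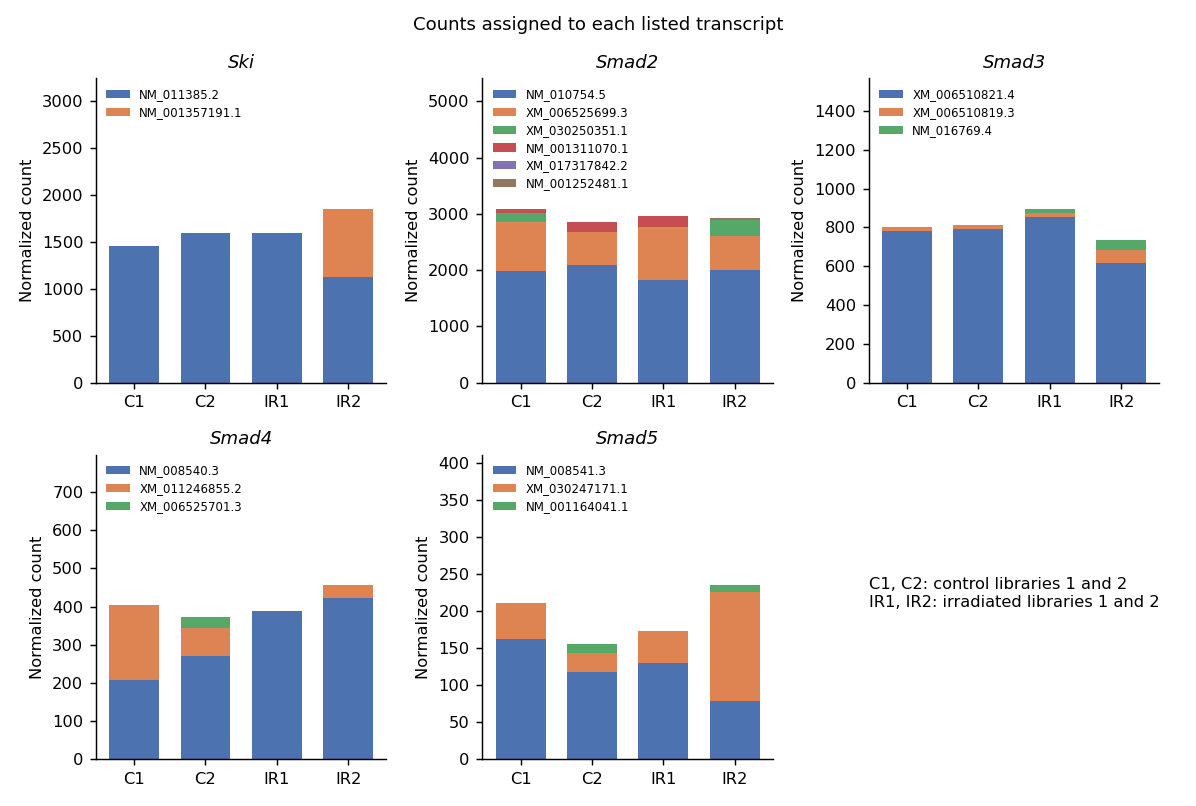
Normalized counts (y axis, linear from 0) assigned to each listed transcript of Ski, Smad2, Smad3, Smad4 and Smad5, stacked per library (C, control; IR, irradiated). The orange part of Ski and most of that of Smad5 lie in irradiated library 2 (39.3% and 63.2% of the gene), whereas the orange part of Smad4 is 48.5% and 19.8% in the controls and 0 and 7.27% in the irradiated libraries.

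The remainder of the pathway was read in 7 lists of 107 genes. Of these, 90 had a value, 65 were tested and 0 were called. At an unadjusted p under 0.05, 3 were higher and 1 was lower, 6.15% of those tested against 5.92% of all genes. The median log2 fold change was 0.06, against 0.01 over all genes.

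The ligands were led by oocyte products. Gdf9 had a mean level of 5739 TPM and Bmp15, its partner in follicle growth, 1104 TPM, and Tgfb2 followed at 198 TPM. Tgfb2 had 29214, 27491, 25274 and 17080 counts, with both irradiated libraries lower, a log2 fold change of -0.52 (SE 0.307) and an edgeR adjusted p of 0.708, and leaving out irradiated library 2 gave -0.15. For Gdf9 and Bmp15 the values were -0.17 and -0.35, and 0.26 and -0.0050 without that library. In all, 0 of the 6 tested ligands passed an unadjusted p of 0.05. The 9 tested receptors had a median of -0.11. The most abundant was the type I receptor Bmpr1b, at 11.8 TPM and a log2 fold change of -0.13, followed by the co-receptor Tgfbr3 (5.83 TPM, 0.21, but -0.061 without irradiated library 2) and Bmpr1a (4.58 TPM, -0.07). Without that library Bmpr1b was at -0.08. The extracellular antagonists and binding proteins had 3 tested members, all with positive estimates and none passing an unadjusted p of 0.05, namely Bambi, a decoy receptor (0.41), Fstl3, which binds activin (0.35), and Ltbp2 (0.13).

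Among the 12 tested anchors, partners and co-activators, Ep300, the acetyltransferase p300, had 139, 132, 108 and 95 counts. Its log2 fold change was -0.54 (SE 0.227), with an unadjusted p of 0.0482 and an edgeR adjusted p of 0.708, and it was -0.31 without irradiated library 2. Its relative Crebbp, the most abundant of the list at 7.70 TPM, had 0.20, the SMAD phosphatase Ppm1a -0.26 and the acetyltransferase Kat2a 0.15. Crebbp stood at 0.038 and Kat2a at 0.073 when irradiated library 2 was left out. Of the 12 tested ubiquitin ligases and deubiquitinases, Wwp2, a ligase that acts on SMADs, had 435, 445, 504 and 879 counts. Its log2 fold change was 0.48 (SE 0.189), with an edgeR unadjusted p of 0.0386 and an adjusted p of 0.708, and it was 0.21 without irradiated library 2. The most abundant members of that list were the deubiquitinase Usp15 (161 TPM, log2 fold change -0.24), the ligase Stub1 (53.5 TPM, 0.24) and the deubiquitinase Usp4 (33.5 TPM). Usp15 stood at -0.13 and Stub1 at 0.15 in the fit that left out irradiated library 2.

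The 15 tested partners of SKI and SKIL in repression had a median of 0.06. Ctbp2, a co-repressor that binds histone deacetylases, had 1556, 1508, 1856 and 3048 counts. Both irradiated libraries were higher, with a log2 fold change of 0.51 (SE 0.170), an unadjusted p of 0.0200 and an edgeR adjusted p of 0.708, and the value was 0.29 without irradiated library 2. The histone methyltransferase Suv39h1 was the most abundant of the list at 87.7 TPM (0.06), and the histone deacetylase Hdac2 had -0.09. Without irradiated library 2 these were 0.11 and -0.013. Of 17 SMAD target genes with a value, 8 were tested. Snai1, a transcriptional repressor, had 87, 135, 168 and 259 counts, with a log2 fold change of 0.77 (SE 0.270), an unadjusted p of 0.0243 and an edgeR adjusted p of 0.708. Id3, the most abundant target at 48.8 TPM, had 965, 895, 983 and 932 counts (-0.09), and Id2 had -0.29. Without irradiated library 2 they were at 0.094 and -0.060. Id3 and Id2 are direct targets of SMAD1 and SMAD5 in many cell types. The small negative estimates of Bmpr1a, Bmpr1b, Hdac2 and Id3 were positive with library size alone and on the log2(TPM + 1) scale.

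**Figure D4:**
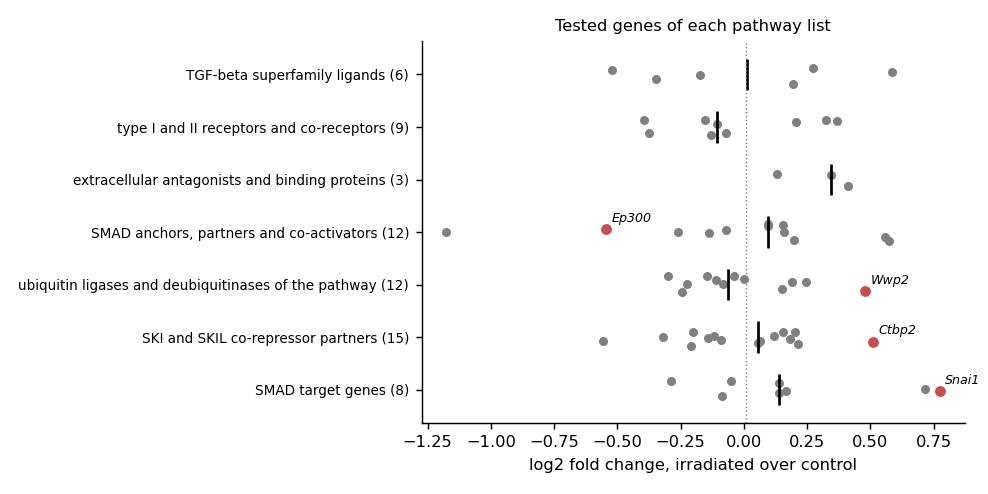
Log2 fold change of gene totals (x axis, irradiated over control) for each tested gene of the 7 pathway lists, with the number tested in parentheses. Black bars mark each list's median, the dotted line the median of all genes (0.01), and red points the 4 genes with an unadjusted p under 0.05 (Ep300, Wwp2, Ctbp2 and Snai1); the grey point farthest to the left is Foxh1 at -1.18, with at most 11 counts in a library.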

How the data were processed

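RNA-seq of 4 libraries, 2 per condition by the sample titles, was analysed. The authors aligned paired-end reads to GRCm38 with Bowtie2, and the submitters' processing notes also name HISAT2 and RSEM, without their roles. The deposited values used are an estimated count and a TPM value for each RefSeq transcript and library; the annotation release is not given in the sources used here. A further 10 columns, 4 of FPKM and 6 of averages, were not used. Counts were summed over the transcripts of a gene and then rounded, and transcript counts were rounded as well. R 4.3.3 and edgeR 4.0.16 were used for the tests: filterByExpr (minimum count 10), TMM, then glmQLFit and glmQLFTest without a block. P-values were adjusted by the Benjamini-Hochberg method across every feature in the fit, and the limits are those of the study's methods. For isoform usage diffSpliceDGE was used. SE and intervals derive from the quasi-likelihood F statistic. A fold against 2 libraries at or under 3 counts is a lower bound against 3 counts in a library. TPM, shares and nearest genes carry no test.

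Positions and promoter windows come from RefSeq's annotation of GRCm38.p6, and 17323 of 17374 gene IDs matched. Protein sequences were not used here. Named are all 9 members with every listed transcript, in each list the 3 genes highest in mean TPM and those with an unadjusted p under 0.05, and the 3 tested genes nearest to Ski and to Skil; Foxh1 and the granulosa genes were named once their values were known. The members and lists were chosen with earlier results of these data known. Alternatives were other scalings and filters, DESeq2 1.42.0, the exact test, limma 3.58.1 (voom, and log2(TPM + 1) with a pseudocount of 1), a replicate block and leaving out each library. The tests were checked on simulated data. Plots were made with Python 3.11.15 and matplotlib 3.10.9.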

Additional observations from a re-analysis of the deposited data

How the results depend on the processing

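No member gene total passed both limits under any alternative fitted to all 4 libraries. Over all genes these called between 0 (library size alone, voom and log2(TPM + 1)) and 10 of 12569 (exact test). The 0 for the members thus lies near the share over all genes. Among member transcripts, DESeq2 called 1, Ski NM_001357191.1, which rests on irradiated library 2. The share over all transcripts was 0.862% by DESeq2 and 0.927% by the exact test, which called 0 members. The other alternatives fitted to all 4 libraries called 0 transcripts in all, so their 0 is no result about the members. The remaining uncalled estimates near 0 changed sign in places. Library size alone moved the median log2 fold change of all genes to 0.17 and log2(TPM + 1) to 0.14, from 0.01. Under these scalings the log2 fold changes became 0.13 and 0.19 for Smad2, 0.056 and 0.11 for its NM_010754.5, 0.023 and 0.082 for Smad3 XM_006510821.4, 0.091 and 0.12 for Bmpr1a, 0.024 and 0.088 for Bmpr1b, 0.063 and 0.13 for Hdac2, 0.055 and 0.12 for Id3, and 0.17 and 0.22 for Usp4; Ski NM_011385.2 became 0.022 under log2(TPM + 1) alone. Usp4 was 0.0003 without the filter. Smad3 fell below 0 by RLE (-0.010), DESeq2 (-0.015) and voom (-0.0072). The replicate block called 0 members and put Smad3 at -0.0055. The paper describes its replicates as independent experiments, and the sample titles do not say whether same-numbered libraries came from the same one. Same-numbered libraries deviated together with r = 0.078 over genes and 0.017 over transcripts. With so few libraries this correlation cannot decide whether they were paired. The block raised the calls among all genes from 1 to 7.

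Leaving out 1 library, estimates ran from -0.080 to 0.39 for Smad5, -0.090 to 0.025 for Smad2, -0.17 to 0.15 for Smad3, -0.45 to 0.068 for Ski NM_011385.2, -10.02 to 0.56 for Smad2 NM_001311070.1, -0.25 to 0.43 for XM_006525699.3, -9.33 to 10.16 for XM_030250351.1, -0.065 to 1.76 for Smad3 XM_006510819.3, -0.36 to 0.12 for XM_006510821.4, -1.41 to 0.54 for Smad5 NM_001164041.1, -0.80 to 0.26 for Gdf9, -0.30 to 0.094 for Id3, -0.020 to 0.14 for Suv39h1, -0.061 to 0.42 for Tgfbr3 and -0.032 to 0.022 for Usp4. Ski ran from 0.064 to 0.24; without irradiated library 1 its edgeR adjusted p was 0.044, below the fold limit, in a fit in which 4468 of 13011 genes had an adjusted p under 0.05 and the lone irradiated library was assumed to vary like the controls. The mean level without 1 library ran from 10.9 to 13.4 TPM for Ski, 13.0 to 14.3 for Smad2 and 1.43 to 2.29 for Smad5. The causes were not tested. With 2 libraries per condition the widest interval of a member total ran from -0.84 to 0.32 (Smad1), and the data cannot tell apart the values inside such an interval. Smad6, Smad7 and Skil are limited by depth.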
